A study of Mus musculus with 15 samples.

Results

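The genes described here encode integrin alpha and beta chains and laminin chains, measured in mouse myocardium. They were chosen by gene symbol (Itga, Itgb and Lama, Lamb or Lamc followed by a chain number or letter). Proteins that only bind integrins were left out, and the choice was made with earlier results of these data known. The rule gave 36 of the 19057 genes named on the arrays, 27 integrin genes and 9 laminin genes, with 85 of 45281 probes. Of these, 31 genes on 52 probes (23 integrin and 8 laminin genes) lay above the background limit on at least 5 of 15 arrays and were tested, and the other 5, Itga2, Itgam, Itgax, Itgb2l and Lama1, were not. Itgbl1 and Itgb2l match the symbol rule by name: Itgbl1 encodes a secreted protein with integrin-like repeats, not a receptor chain.

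The mice were male, of the C57Bl/6J strain and 10 weeks old, and the 15 samples formed 3 groups of 5. The control group received an injection of PBS (PBS). The second group received doxorubicin, an anthracycline chemotherapy drug that is toxic to the heart (DOX). The third received AAV9-VEGF-B, an adeno-associated virus vector carrying vascular endothelial growth factor B, 7 days before doxorubicin (VEGF-B+DOX). Hearts were collected 20 hours after the doxorubicin or PBS injection, and biotin-labelled cRNA was hybridised to Illumina arrays. The groups include no vector without doxorubicin and no control vector, so an effect of the vector particle and one of VEGF-B cannot be told apart. The promoter of the vector is not given in the sources used here.

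Integrins are receptors made of an alpha and a beta chain that span the cell membrane and tie the extracellular matrix to the actin cytoskeleton. The pair of chains sets the ligand: some bind collagens, some laminins, and others fibronectin, vitronectin or adhesion molecules of other cells. Laminins are cross-shaped trimers of an alpha, a beta and a gamma chain, and they form one of the networks of basement membranes. In the heart, basement membrane surrounds each cardiomyocyte and underlies the endothelium of each capillary.

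Values are the authors' normalised log2 intensities, every array had a median of 6.92, and differences are log2 differences between group means with the standard error (SE) of the limma fit. A gene was called on its brightest tested probe when the p-value, adjusted by the Benjamini-Hochberg method over all 24861 tested probes, was under 0.05. The single probe of Vegfb, the gene the vector delivers, was lower in VEGF-B+DOX than in DOX hearts, with a difference of -0.22 ± 0.06 (adjusted p = 0.0199, limma). No probe or vector sequence was used here, so whether this probe detects the vector's transcript is not known. For a marker list, the level is the log2 of the summed linear intensities, on which the brightest probes weigh most. The 14 tested endothelial markers had levels of 14.70 to 14.83 in PBS, 14.75 to 14.93 in DOX and 15.18 to 15.45 in VEGF-B+DOX hearts. Of the 14 markers, 9 were higher in VEGF-B+DOX than in DOX. Aqp1 and Egfl7, the brightest of them, differed by 0.01 and 0.81. The 13 tested cardiomyocyte markers, with levels of 17.66 to 17.82, 17.51 to 17.78 and 17.67 to 17.80, included 0 calls in each comparison. The brightest of them lay near the array maximum of 14.93, such as Tnnc1 (mean 14.72) and Fabp3 (mean 14.70). A change can be understated there, so these values do not settle whether cardiomyocyte RNA changed. Of 12 tested macrophage markers, 3 were higher in VEGF-B+DOX than in PBS hearts and 0 were called in the other comparisons. Of 6 tested neutrophil markers, 2 were higher in DOX and in VEGF-B+DOX than in PBS hearts, S100a9 by 1.34 and 0.83 and S100a8 by 1.18 and 0.78, and 0 were called between the drug-treated groups. Over all tested genes, 0.416% were called in DOX against PBS, 8.43% were higher in VEGF-B+DOX than in DOX and 8.74% higher than in PBS. PBS 4, PBS 5, DOX 5 and VEGF-B+DOX 5 stood apart on the second principal component (19.3% of the variance), and the labels name no batch.

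Promoters are shown for 3 of the 4 called genes, since these genes carry the calls between groups; for Lamc1, the fourth, none was used here. Each run holds the 300 bases around a RefSeq gene start of build GRCm38.p6, most of them before it, written 5′ to 3′ on the gene's strand, and capitals mark a motif match. Itga1 lies on the minus strand at chr13:115101915-115102214, Itgbl1 on the plus strand at chr14:123659890-123660189 and Itgb6, at the first of its 2 listed starts, on the minus strand at chr2:60722554-60722853.
Itga1: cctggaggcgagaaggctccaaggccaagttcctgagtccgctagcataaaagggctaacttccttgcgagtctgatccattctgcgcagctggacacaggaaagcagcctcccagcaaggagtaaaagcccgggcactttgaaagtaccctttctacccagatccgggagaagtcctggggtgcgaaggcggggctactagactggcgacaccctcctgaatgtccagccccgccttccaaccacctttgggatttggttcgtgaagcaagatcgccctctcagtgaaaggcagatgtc
Itgbl1: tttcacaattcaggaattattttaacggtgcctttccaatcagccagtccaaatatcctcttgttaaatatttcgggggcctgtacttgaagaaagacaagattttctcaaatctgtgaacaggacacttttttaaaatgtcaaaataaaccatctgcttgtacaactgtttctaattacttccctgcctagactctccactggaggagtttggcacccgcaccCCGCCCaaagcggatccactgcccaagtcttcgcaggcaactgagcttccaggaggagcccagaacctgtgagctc
Itgb6: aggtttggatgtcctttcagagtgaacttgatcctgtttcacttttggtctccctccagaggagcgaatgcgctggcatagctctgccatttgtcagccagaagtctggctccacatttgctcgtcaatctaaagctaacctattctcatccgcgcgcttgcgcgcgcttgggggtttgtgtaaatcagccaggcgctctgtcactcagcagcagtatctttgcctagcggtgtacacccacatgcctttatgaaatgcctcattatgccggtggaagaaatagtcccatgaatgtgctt
On both strands, the ETS core CGGAAG, the AP-1 site TGACTCA and the Sp1 GC box GGGCGG were searched for as exact letters. Itgbl1 held 1 GC box, on its minus strand, and Itga1 and Itgb6 held none of the 3. Among the 27 promoters found for 24 of the 36 genes, 11.1% held the ETS core, 7.41% the AP-1 site and 48.1% the GC box. Of all 32851 promoters in the table, 16.9%, 5.2% and 35.7% did.

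The comparison of DOX with PBS hearts asks what doxorubicin alone did to these genes within a day. Of the 31 tested genes, 0 were called, against 0.416% of the 12750 genes tested in all, and 5 had an unadjusted p under 0.05 (11.7% of all genes). The median difference was -0.03 (all genes, -0.002), the arrays of the 2 groups stood fully apart for 0 genes (all genes, 2.27%), and single genes ran from -0.81 for Itgb6 to 0.13 for Itgb5. In VEGF-B+DOX against DOX hearts, which asks what changed when the vector came first, 3 genes were higher (Lamc1, Itga1 and Itgbl1) and 0 lower. That is 9.68% of the genes, against 12.4% of all tested genes (8.43% higher and 3.95% lower), so the share was near the background. In VEGF-B+DOX against PBS hearts the same 3 genes were higher and Itgb6 was lower, 12.9% against 14.6% of all genes (8.74% higher and 5.87% lower). The medians were 0.06 and 0.02 (all genes, -0.02 and -0.014). VEGF-B+DOX arrays stood fully apart from DOX arrays for 3 of the 31 genes (all genes, 9.77%) and from PBS arrays for 3 (all genes, 12.2%).

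**Figure D1:**
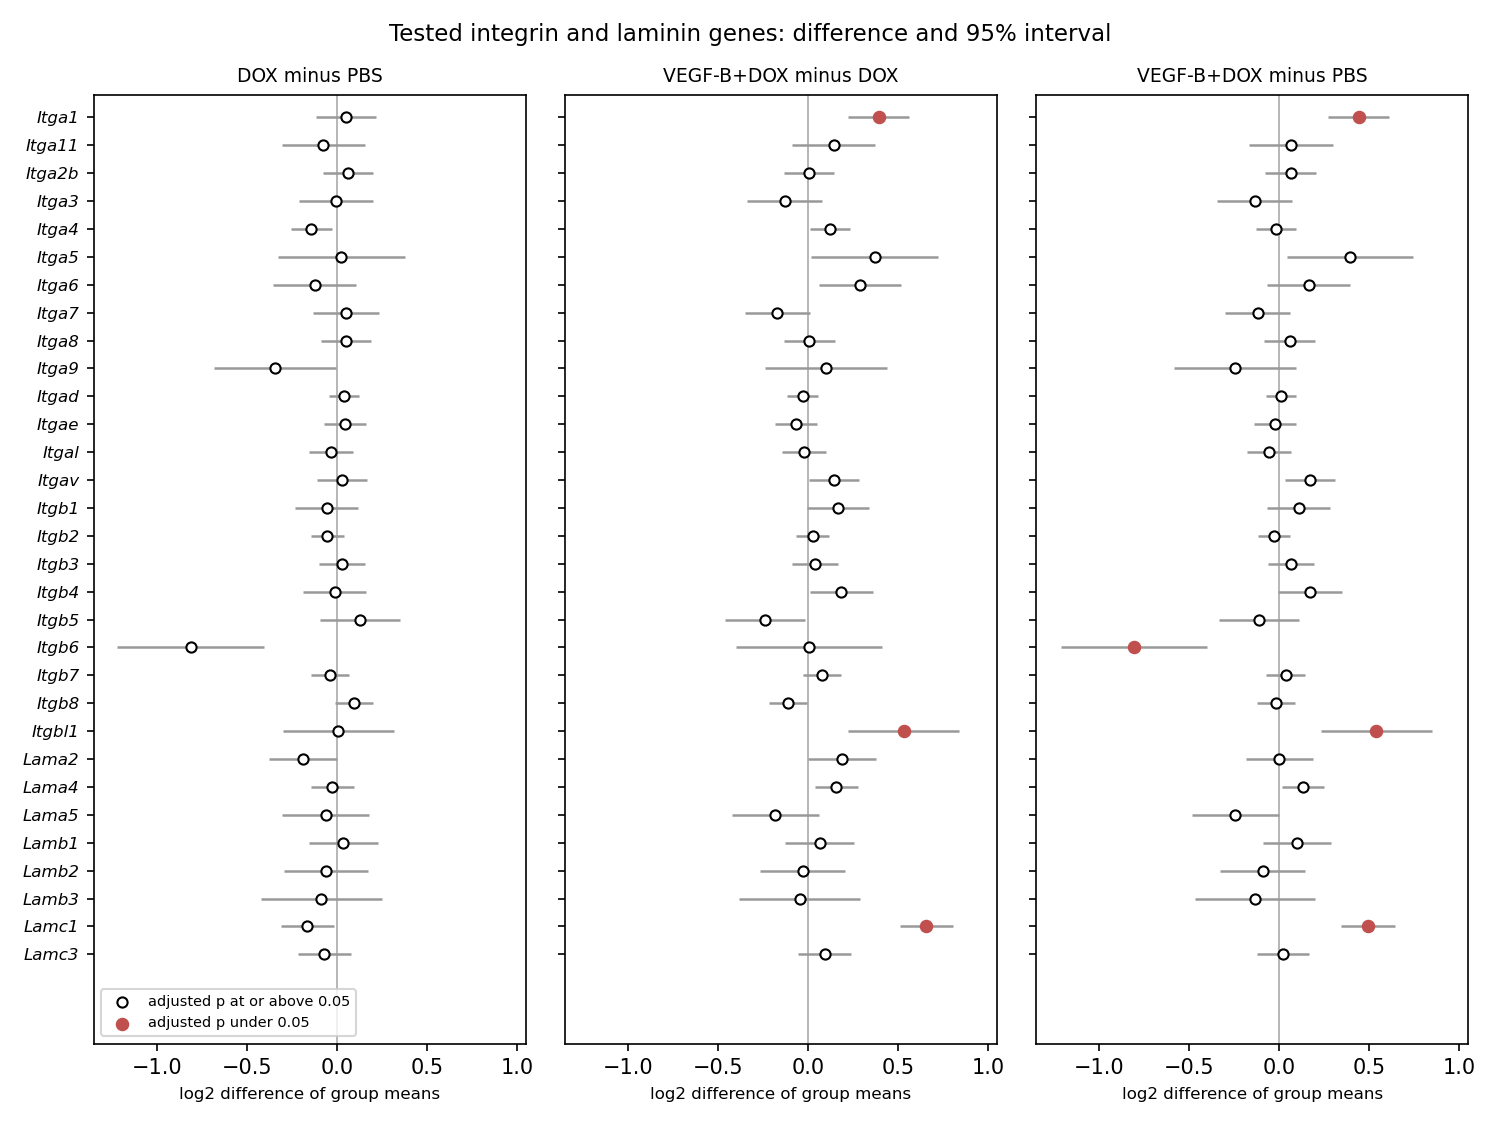
Log2 difference between group means (horizontal axis) for the brightest tested probe of each of the 31 genes, with its 95% interval, in the 3 comparisons. Filled points have an adjusted p under 0.05 in limma: none in DOX minus PBS, 3 in VEGF-B+DOX minus DOX and 4 in VEGF-B+DOX minus PBS.

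Lamc1 encodes the laminin gamma 1 chain, which is shared by most laminins of muscle and vessel basement membranes. On its brightest probe (ILMN_2774596) the log2 levels were 11.3, 11.48, 11.44, 11.34 and 11.42 in the PBS hearts, 11.25, 11.26, 11.37, 11 and 11.28 in the DOX hearts and 11.86, 11.88, 11.94, 11.95 and 11.82 in the VEGF-B+DOX hearts. The VEGF-B+DOX arrays all lay above every array of the other groups. The level was higher by 0.66 ± 0.07 than in DOX (adjusted p = 6.73e-06, limma) and by 0.49 ± 0.07 than in PBS hearts (adjusted p = 0.000146). DOX hearts differed from PBS hearts by -0.16, which did not pass (adjusted p = 0.416).

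A second Lamc1 probe (ILMN_2974798) read 10.34, 10.04, 9.78, 10.25 and 10.36 in the PBS hearts, 10.16, 10.46, 9.9, 10.05 and 9.85 in the DOX hearts and 10.97, 10.97, 11.08, 10.29 and 10.42 in the VEGF-B+DOX hearts. It rose by a like amount, 0.66 ± 0.16 over DOX (adjusted p = 0.0109) and 0.59 ± 0.16 over PBS (adjusted p = 0.0187). VEGF-B+DOX arrays 4 and 5 lay within the range of the other groups on this probe, so here the groups overlapped. The call against PBS was lost when PBS 3 or VEGF-B+DOX 1, 2 or 3 was left out. In bulk tissue, more cells of a type and more RNA per cell cannot be told apart. In VEGF-B+DOX hearts, 9 of 14 endothelial and 6 of 11 smooth muscle and pericyte markers were higher than in DOX hearts, and 0 lower. Of all tested genes, 8.43% were higher. The part of cell composition in the rise of Lamc1 was not tested.

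The chains that join gamma 1 in laminin trimers were not called. Lama4, an alpha chain of vascular laminins, came nearest, with levels of 7.06, 7.05, 7.04, 7.15 and 6.98 in DOX and 7.2, 7.25, 7.27, 7.18 and 7.17 in VEGF-B+DOX hearts. These did not overlap, but the difference of 0.16 ± 0.06 missed the threshold (adjusted p = 0.0902), and the other 2 tested Lama4 probes differed by 0.04 and 0.01. Without PBS 4, PBS 5, DOX 5 and VEGF-B+DOX 5 it passed against PBS, at 0.23 (adjusted p = 0.0167).

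Lama2, the alpha chain of the main laminin around cardiomyocytes, differed by 0.19 ± 0.09 between VEGF-B+DOX and DOX (adjusted p = 0.222) and by -0.19 between DOX and PBS (adjusted p = 0.485). Lama5, a further alpha chain of vessel laminins, gave -0.18 and -0.06 in the same comparisons. The beta chains gave 0.06 for Lamb1, with a 95% interval of -0.13 to 0.25, and -0.03 for Lamb2, with an interval of -0.26 to 0.20, in VEGF-B+DOX against DOX. The Lamb1 probe lay near background (above it on 13 of 15 arrays), where a difference is understated. Lamb3, best known from epithelial basement membrane, differed by -0.05, and Lamc3, a gamma chain, by 0.09 on a dim probe.

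Itga1 encodes the alpha 1 chain, which pairs with beta 1 as a receptor for collagens, that of basement membrane included. The levels were 7.64, 7.56, 7.71, 7.67 and 7.75 in the PBS hearts, 7.54, 7.77, 7.6, 7.72 and 7.95 in the DOX hearts and 8.06, 8.08, 8.29, 8.12 and 7.99 in the VEGF-B+DOX hearts. Every VEGF-B+DOX array was higher than every other array, although VEGF-B+DOX 5 (7.99) and DOX 5 (7.95) were close. The rise was 0.39 ± 0.08 over DOX (adjusted p = 0.00345) and 0.44 ± 0.08 over PBS (adjusted p = 0.00126), and DOX and PBS differed by 0.05 (adjusted p = 0.896). On Lamc1's brightest probe and on Itga1 the 2 calls held under all 28 alternatives that gave a value.

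Itgbl1, the integrin-like secreted protein, gave levels of 9, 8.67, 8.59, 8.6 and 8.79 in the PBS hearts, 8.88, 9.21, 8.34, 8.75 and 8.51 in the DOX hearts and 9.48, 9.54, 9.3, 8.89 and 9.14 in the VEGF-B+DOX hearts. The VEGF-B+DOX arrays were high as a group, but DOX 2 and PBS 1 lay within their range. The rise of 0.53 ± 0.15 over DOX (adjusted p = 0.0266) was lost under 8 of 28 alternatives, and that of 0.54 over PBS (adjusted p = 0.0212) under 5. It failed against DOX on leaving out DOX 3, DOX 4, DOX 5 or VEGF-B+DOX 1, 2 or 3 singly, and against PBS on leaving out PBS 3, PBS 4 or VEGF-B+DOX 1 or 2 singly. The second Itgbl1 probe was dim (above background on 7 arrays) and differed by -0.02 and -0.04.

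**Figure D2:**
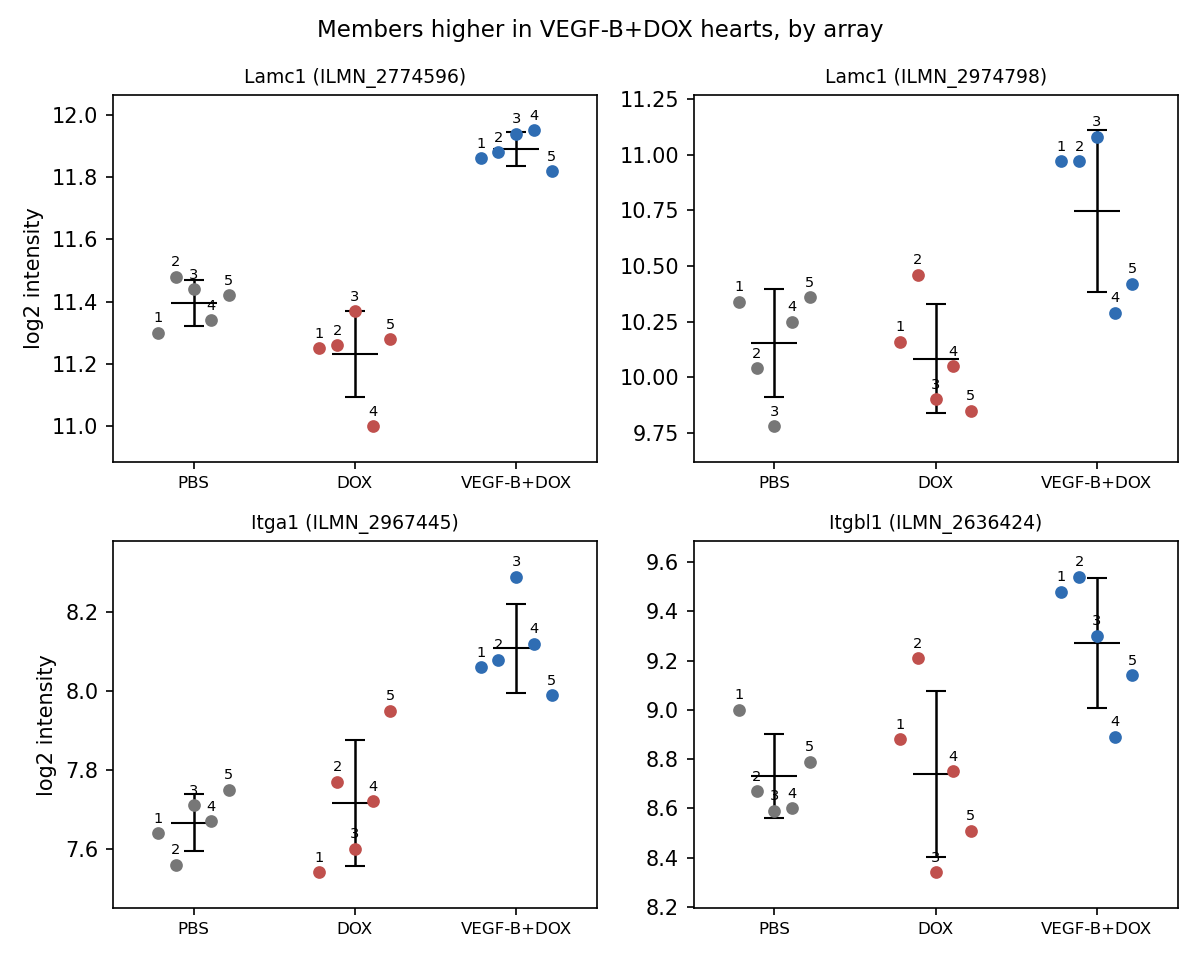
Log2 intensity (vertical axis) on each array of the 3 groups for both Lamc1 probes, Itga1 and the brighter Itgbl1 probe, with replicate numbers beside the points and the mean and SD as bars. VEGF-B+DOX arrays clear the other groups on Lamc1 ILMN_2774596 and on Itga1, and overlap them on the other 2 probes.

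Itga6 encodes the alpha 6 chain, a laminin receptor chain that pairs with beta 1 or beta 4. Its brightest probe was not called, so the gene is not among the 3, yet one of its 3 tested probes passed. That probe (ILMN_1236600) read 7.47, 7.42, 7.34, 7.6 and 7.24 in the PBS hearts, 7.17, 7.18, 7.16, 7.21 and 7.18 in the DOX hearts and 7.59, 7.51, 7.6, 7.73 and 7.4 in the VEGF-B+DOX hearts. DOX arrays lay below all arrays of the other groups, and VEGF-B+DOX exceeded DOX by 0.39 ± 0.07 (adjusted p = 0.00117), in all 28 alternatives. The difference of DOX from PBS, -0.23, did not pass (adjusted p = 0.182). On the other tested Itga6 probes, ILMN_1223670 and ILMN_1231492, that difference was -0.12 and -0.01.

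The brightest Itga6 probe (ILMN_1223670) differed by 0.29 ± 0.11 between VEGF-B+DOX and DOX (adjusted p = 0.116), and ILMN_1231492 by 0.35 ± 0.13 (adjusted p = 0.0948). In this comparison the 3 probes thus had differences of one sign and near one size, and one call. On ILMN_1231492 the comparison passed in 6 alternatives, with the adjusted p between 0.0172 and 0.0474. These were array weights, the replicate block, and 4 separate fits that left out DOX 2, VEGF-B+DOX 5, DOX 2 with VEGF-B+DOX 3, or PBS 4, PBS 5, DOX 5 and VEGF-B+DOX 5.

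**Figure D3:**
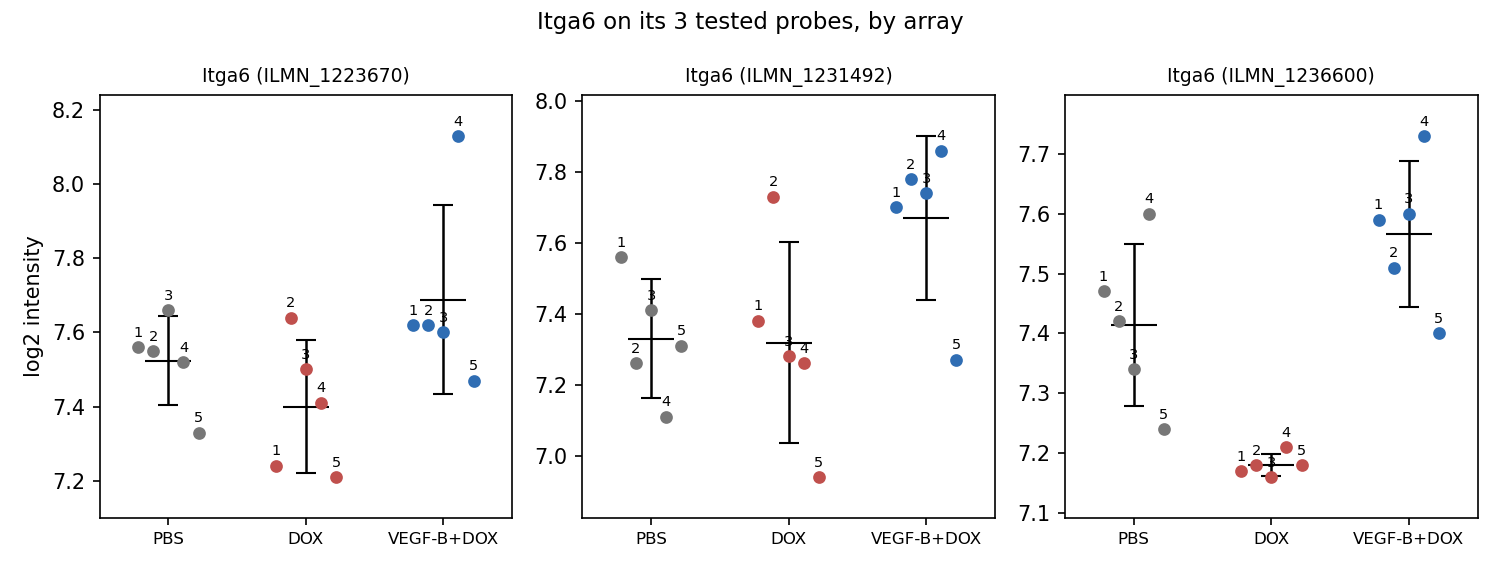
Log2 intensity (vertical axis) of the 3 tested Itga6 probes on each array by group, with the mean and SD as bars. On ILMN_1236600 the DOX arrays, 7.16 to 7.21, sit below all others; on the other 2 probes the groups overlap.

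Itgb6 encodes the beta 6 chain, which pairs with the alpha v chain and is known mainly from epithelium, where the pair binds and activates latent TGF-beta. On its brightest probe (ILMN_2805372) the log2 levels were 9.79, 10.07, 10.38, 9.98 and 9.7 in the PBS hearts, 8.68, 9.87, 8.75, 9.26 and 9.29 in the DOX hearts and 8.83, 8.88, 9.37, 9.52 and 9.28 in the VEGF-B+DOX hearts. All VEGF-B+DOX arrays lay below all PBS arrays, and so did 4 of 5 DOX arrays, while DOX 2 lay within the PBS range. Against PBS the level fell by 0.81 in VEGF-B+DOX hearts (SE 0.19, adjusted p = 0.00995), and the 2 drug-treated groups differed by 0.01 ± 0.19, with a 95% interval of -0.40 to 0.41. The difference of DOX from PBS was as large, -0.81 ± 0.19, and missed the threshold (adjusted p = 0.0840). The unadjusted p-values in limma were 0.000523 for DOX and 0.000560 for VEGF-B+DOX against PBS, so only the adjustment set the calls apart.

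The other 2 Itgb6 probes gave -0.79 (adjusted p = 0.0150) and -0.60 (adjusted p = 0.00527) in VEGF-B+DOX against PBS hearts, again with no overlap. In DOX against PBS they gave -0.66 (adjusted p = 0.200) and -0.50 (adjusted p = 0.126). DOX 2 read 9.89 and 8.33 on them, the highest DOX value on each. Without DOX 2 all 3 probes passed in DOX against PBS, at -0.99 (adjusted p = 0.00471), -0.89 (adjusted p = 0.00499) and -0.63 (adjusted p = 0.00367). All arrays were kept in the values given first.

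**Figure D4:**
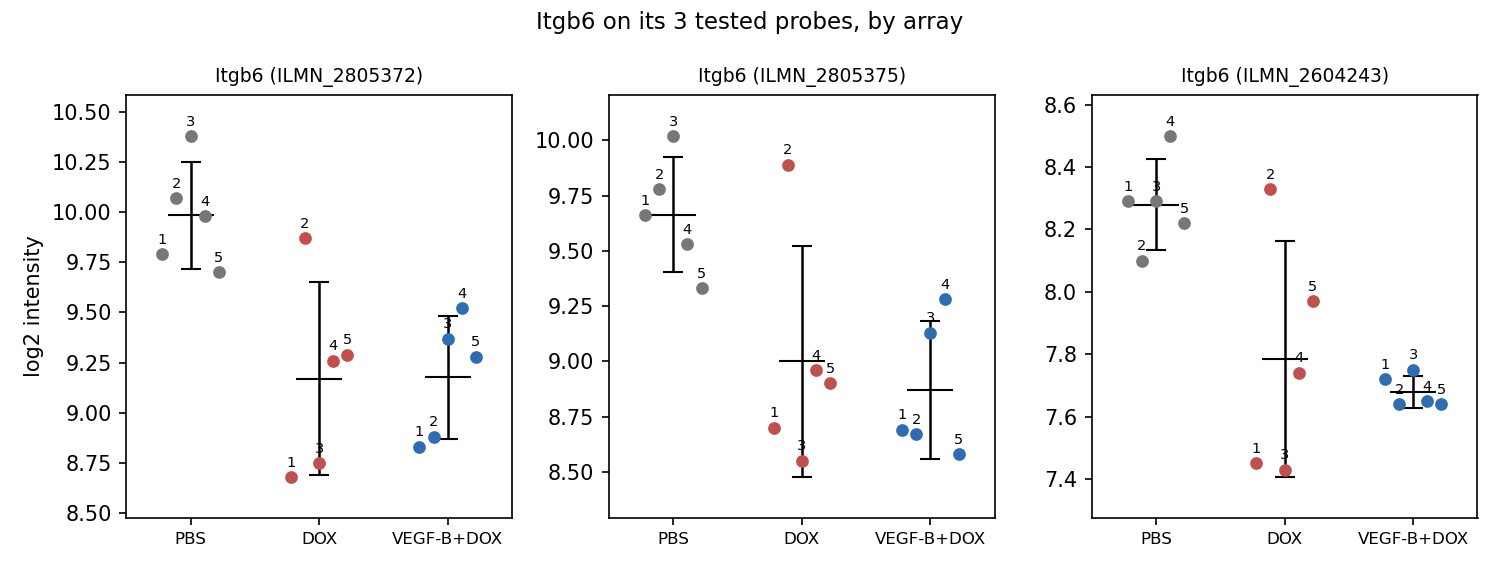
Log2 intensity (vertical axis) of the 3 tested Itgb6 probes on each array by group, with replicate numbers and the mean and SD as bars. VEGF-B+DOX arrays sit below all PBS arrays on each probe, and DOX 2 sits above the other DOX arrays.

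The alpha v chain, partner of beta 6 and of several other beta chains, is encoded by Itgav. Its brightest probe differed by 0.17 ± 0.07 between VEGF-B+DOX and PBS (adjusted p = 0.114), and passed without PBS 3, at 0.22 (adjusted p = 0.0416). A dimmer probe passed at 0.19 ± 0.05 (adjusted p = 0.026), a call lost in 5 of 27 alternatives, each without 1 array (PBS 1, 2 or 3, VEGF-B+DOX 1 or 5). The third tested Itgav probe gave -0.03, so the probes disagreed. Itgb5, whose chain pairs with alpha v to bind vitronectin, differed by -0.24 between VEGF-B+DOX and DOX (adjusted p = 0.185), and Itgb8, whose pair with alpha v also binds latent TGF-beta, by -0.11 on a dim probe.

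Itgb1 encodes the beta chain shared by most collagen, laminin and fibronectin receptors, alpha 1 and alpha 6 among them. Its levels were 8.26, 8.46, 8.25, 8.38 and 8.4 in DOX and 8.45, 8.44, 8.31, 8.66 and 8.72 in VEGF-B+DOX hearts, which overlapped. The difference was 0.17 ± 0.08 (adjusted p = 0.252, 95% interval -0.01 to 0.34). A second Itgb1 probe differed by 0.09. Itgb4, the other partner of alpha 6, differed by 0.18 (adjusted p = 0.204) on its brightest probe. Its other tested probe differed by -0.008, so the Itgb4 probes disagreed.

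Itga5, the alpha chain of the main fibronectin receptor, had the largest uncalled differences above 0, 0.37 ± 0.17 over DOX (adjusted p = 0.201) and 0.39 over PBS (adjusted p = 0.151) on its brightest probe. Its other probe differed by 0.29 from DOX (adjusted p = 0.0910), and passed under array weights and without DOX 2 or VEGF-B+DOX 5. Itga9, whose chain binds tenascin-C, differed by -0.34 ± 0.16 between DOX and PBS on its brightest probe (adjusted p = 0.480). On it DOX 2 read 11.24 and the other DOX arrays 10.10 to 10.65. The other tested Itga9 probes lay near background and differed by 0.03 and -0.01, so the probes disagreed. The brightest Itga9 probe did not pass without DOX 2 alone. It passed only when VEGF-B+DOX 3, an array outside this comparison, was left out as well, at -0.51 (adjusted p = 0.0193).

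Itga7, a laminin receptor chain of muscle, differed by -0.17 ± 0.09 between VEGF-B+DOX and DOX (adjusted p = 0.266), and Itga11, a collagen receptor chain of fibroblasts, by 0.14 ± 0.11 (adjusted p = 0.508). Itga4, a receptor chain for VCAM-1 and fibronectin, gave 0.12 ± 0.05 (adjusted p = 0.172) near background. Itga3, a laminin receptor chain, gave -0.13, and Itga8, a chain of smooth muscle and mesenchyme, 0.01. On their brightest probes, the leukocyte chains Itgal, Itgb2, Itgad, Itgae and Itgb7 had differences between -0.07 and 0.08 in all 3 comparisons. So did Itga2b and Itgb3, whose chains form a pair on platelets. For 11 of the 31 genes the brightest probe was not above background on every array, and for those the array limits what could be seen.

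Partner genes were counted from 3 lists, drawn up with earlier results of these data known. Their shares beside those of all genes are thus descriptive only. Of 30 tested cytoplasmic proteins linked to integrins, 0 were called in DOX against PBS (all genes, 0.416%). In VEGF-B+DOX against DOX, 11 were higher (all genes, 8.43%) and 0 lower. Against PBS, 9 were higher (all genes, 8.74%) and 0 lower. Zyx, which encodes the focal adhesion protein zyxin, rose by 0.60 ± 0.07 over DOX (adjusted p = 9.84e-06), Actn4, an actin crosslinker, by 0.62, Lims2, an adaptor that binds integrin-linked kinase, by 0.63, and Ilk, that kinase, by 0.45 (adjusted p = 0.00239). The list's median difference was 0.12, against -0.02 over all genes.

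Of 28 tested other ligands in the matrix and on cells, 0 were called in DOX against PBS (all genes, 0.416%). In VEGF-B+DOX hearts 13 were higher than in DOX (all genes, 8.43%) and 15 higher than in PBS (all genes, 8.74%), with 0 lower in each. Over DOX, Col18a1, a basement membrane collagen, rose by 1.69 ± 0.11, and Nid2, which encodes a nidogen that binds the laminin gamma 1 chain, by 1.30. Hspg2, which encodes perlecan, rose by 0.86 and Col4a2, a chain of collagen IV, by 1.16. The median was 0.29 over DOX and 0.36 over PBS (all genes, -0.02 and -0.014).

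The third list held laminin receptors and laminin-binding proteins that are not integrins, with associated genes such as those of sarcoglycans. Of its 16 tested genes, 0 were called in DOX against PBS. Sdc3, a heparan sulphate proteoglycan of the cell surface, rose by 0.74 ± 0.08 over DOX (adjusted p = 4.33e-06) and by 0.77 over PBS. Against PBS, Sgcb and Sgca, which encode sarcoglycans of the muscle membrane, fell by 0.40 and 0.34, and Sdc4, another syndecan, fell by 0.28. Of 11 tested smooth muscle and pericyte markers, 6 were higher and 0 lower in VEGF-B+DOX than in DOX, 3 were higher and 2 lower in VEGF-B+DOX than in PBS, and 1 was lower in DOX than in PBS. Of 11 tested fibroblast markers, 1 was higher in VEGF-B+DOX than in DOX, 1 was higher and 1 lower than in PBS, and 0 were called in DOX against PBS. Of all tested genes, 8.43% were higher and 3.95% lower in VEGF-B+DOX than in DOX, and 8.74% higher and 5.87% lower than in PBS. In DOX against PBS, 0.416% of all tested genes were called, so counts near 0 there say little about these lists. The part of cell composition in these counts was not tested.

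**Figure D5:**
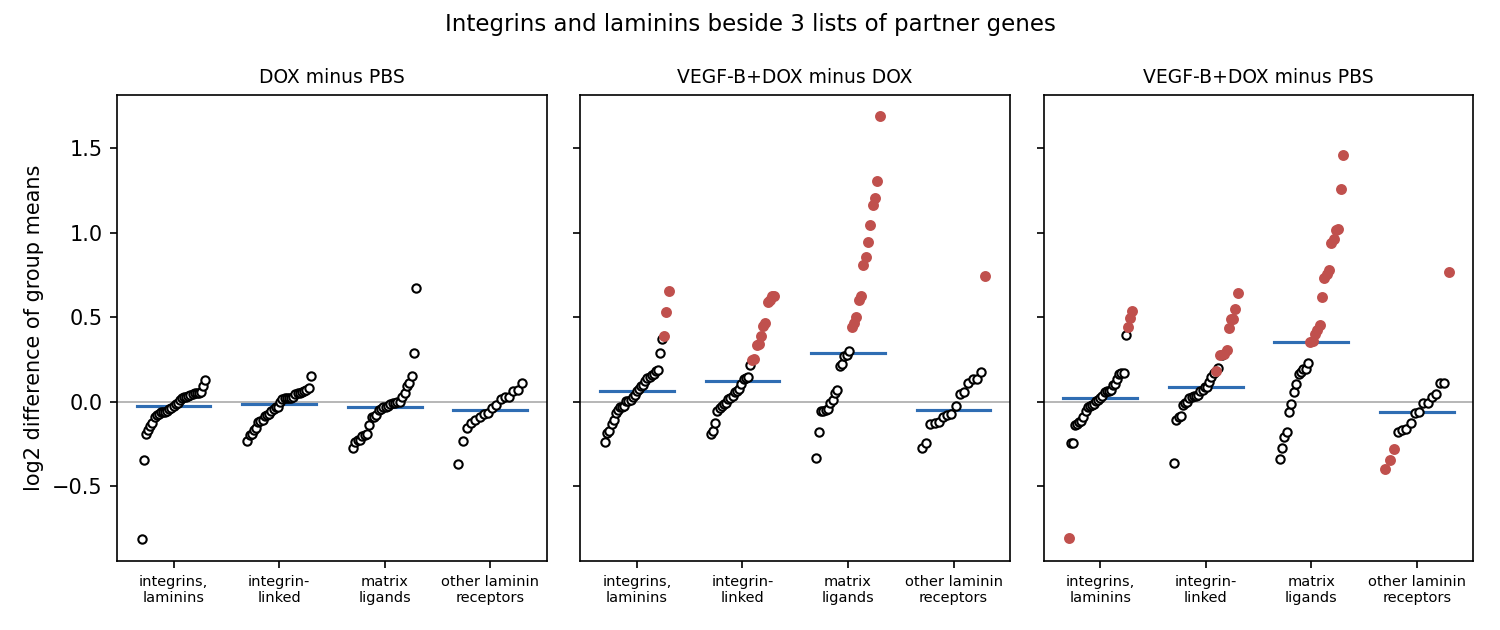
Log2 difference between group means (vertical axis) for the tested genes of the 2 families and of 3 lists of partner genes, in the 3 comparisons. The lists were chosen with earlier results of these data known. Each point is a gene on its brightest probe, filled where the adjusted p is under 0.05, and the bar is the median; the median of the matrix ligands is 0.29 in VEGF-B+DOX minus DOX.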

How the data were processed

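The authors' deposited values are log2 intensities of 15 Illumina arrays, 1 per sample; the log2 scale and the quantile normalisation were read from the values (sorted values of 2 arrays differ by at most 0.01), and the software is not given in the sources used here. RNA extraction used TRIsure and NucleoSpin RNA II, and labelling an Ambion kit, per the labels' protocols. A table of raw signals was not used, since its 15 sample columns match no label. Of 45281 probes, 34885 have 1 gene symbol in the platform annotation, 18 several and 10378 none; 0 symbols changed through the mouse gene table.

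The members and gene lists were chosen with earlier results of these data known. The fit was limma 3.58.1 in R 4.3.3, with 1 mean per group, 12 residual degrees of freedom, a variance trend over intensity and Benjamini-Hochberg adjustment within each comparison. A probe was tested when above the background limit (the mode of all values plus the 95% point of a normal spread reflected from the values below it) on at least 5 arrays. The mode of these 2-decimal values can be read in more than one way, and 3 readings were run with their results in view. The most frequent value, 6.78, the most literal reading of the planned rule, gave a limit of 6.89 and 27106 tested probes. The default density, rounded to 6.80, gave 6.92 and 24128. A density of bandwidth 0.025, with mode 6.797 and limit 6.913, gave 24861, the number in the earlier account of these data, and was kept to match it. The member genes called were 0, 3 and 4 under each reading. Every gene of the families is accounted for; called genes, the few of smallest adjusted p, their partner chains and the brightest uncalled genes are described. In each partner list up to 4 genes of smallest adjusted p are named. The fit was tested on simulated data.

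The samples were not paired by replicate number in the main fit. The 15 same-numbered pairs had residual correlations from -0.41 to 0.63, 7 of them over 0.1. Their median was 0.10, against -0.06 for pairs of different numbers. Whether samples of one number were handled together was not tested. Should any arrays share a mouse, which the labels do not settle, p-values measure the spread between samples only. Background left in the values makes differences of dim probes understate the change. Sequences are from RefSeq, build GRCm38.p6.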

Additional observations from a re-analysis of the deposited data

Results flagged for a closer look

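Among 108 sets of 5 arrays (36 probes of the described genes in 3 groups), 5 held an array farther from the rest than Dixon's 95% limit, and chance gives about 1 in 20. Itga5 (ILMN_2670172) read 7.24 on PBS 2, with the other PBS arrays at 7.52 to 7.60. Itga6 (ILMN_1223670) read 8.13 on VEGF-B+DOX 4, with the others of the group at 7.47 to 7.62. Itga6 (ILMN_1231492) read 7.27 on VEGF-B+DOX 5, with the others at 7.70 to 7.86. Itga9 (ILMN_2580554) read 6.98 on VEGF-B+DOX 1, with the others at 7.07 to 7.09. Lama5 read 9.29 on DOX 2, with the other DOX arrays at 9.74 to 9.91.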

How the results depend on the processing

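Member counts were 0, 3 and 4 in DOX against PBS, VEGF-B+DOX against DOX and VEGF-B+DOX against PBS. In DOX against PBS, the count was 1 with array weights (Itgb6) and 2 without both DOX 2 and VEGF-B+DOX 3 (Itga9 and Itgb6), and 0 to 1 when single arrays were left out. All probes called there numbered 80, but 53 with no trend in the variance prior, 201 with array weights, 677 without both DOX 2 and VEGF-B+DOX 3, 1 without PBS 4, PBS 5, DOX 5 and VEGF-B+DOX 5, and 2 to 487 when single arrays were left out (2 without DOX 1 and 487 without DOX 2). In VEGF-B+DOX against DOX, array weights gave 3601 calls in place of 2383, and leaving out single arrays gave 1627 to 2597 with 2 to 3 member genes. In VEGF-B+DOX against PBS it gave 2008 to 2946 with 3 to 4. With the replicate number as a block the member counts were 0, 3 and 4 and the probes called 81, 2595 and 3135; 5 of 15 arrays correlated best with an array of their own number. Over single member probes, 4204 alternative values kept their call or, where uncalled, moved by less than the SD within groups, 45 uncalled ones moved further, 27 gained a call, 23 called ones lost it, and 0 changed sign with a call. The 2 other background readings, added after the data were seen, gave 83 and 80, 2296 and 2405, and 2749 and 2869 probes called. Cause was not tested for any of these. Dim probes limit what 11 of the 31 genes can show.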
